A study of Mus musculus with 44 samples.

Results

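A set of 10 hormone genes of the hypothalamus and pituitary, of the 55416 gene identifiers counted in each library, was followed through mouse brain, liver and small intestine. They are Oxt (oxytocin), Avp (vasopressin), Hcrt (orexin), Pmch (melanin-concentrating hormone), Trh (thyrotropin-releasing hormone), Agrp (agouti-related peptide), Pomc (proopiomelanocortin), Prl (prolactin), Gh (growth hormone) and Cga (the alpha subunit that thyrotropin and the gonadotropins share). Each symbol matched 1 counted identifier, and all 10 passed the filter on low counts in brain, where every one of the 15 libraries held at least 1 read of each. They were chosen by their counts in the brain libraries, which varied widely between libraries and between treatments, so those values in brain by treatment are given as a description, with no test.

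Mice of the C57BL/6J strain, about 2 months old, received either vehicle or manganese (Mn) each day, the latter as MnCl2·4H2O at roughly 50 mg per kg. The series studied gene expression after manganese exposure in relation to motor function. The vehicle group held 3 females and 4 males and the Mn group 3 females and 5 males, and each of the 15 animals gave a brain and a liver library. A small intestine library was analysed for 14 of them, without the Mn male 2601. RNA was extracted from whole tissue homogenate and sequenced from the 3′ end of transcripts, at 1883082 to 3798810 reads assigned to genes per brain library. Levels are CPM, a gene's reads relative to all assigned reads of its library, adjusted by the trimmed mean of M values.

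Oxytocin and vasopressin are made by large neurons of the paraventricular and supraoptic nuclei and are carried down their axons to the posterior pituitary. Orexin and melanin-concentrating hormone come from separate neurons of the lateral hypothalamus, and Agrp and Pomc from opposing feeding neurons of the arcuate nucleus. Prolactin, growth hormone and the glycoprotein hormones are products of the anterior pituitary, which hangs below the brain on a stalk, and Pomc is also made there. In such bulk samples, fewer cells of a type and less RNA per cell cannot be told apart.

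Promoters are shown for Oxt and Avp because these neighbouring genes, with 0 protein-coding genes between them, varied together, and for Prl because it had the widest change of the set. The windows run from 250 bases before to 50 bases after the transcript start and are from RefSeq on GRCm38.p6, in which 8 of the 10 genes had an entry (not Gh or Agrp). Capitals mark TGACC on either strand in Oxt and Avp, a half-site of nuclear receptor response elements, and TATNCAT on either strand in Prl, the core bound by the pituitary factor encoded by Pou1f1. The Oxt window is chr2:130575919-130576218 on the plus strand, the Avp window chr2:130582539-130582838 on the minus strand and the Prl window chr13:27057320-27057619 on the plus strand.
Oxt: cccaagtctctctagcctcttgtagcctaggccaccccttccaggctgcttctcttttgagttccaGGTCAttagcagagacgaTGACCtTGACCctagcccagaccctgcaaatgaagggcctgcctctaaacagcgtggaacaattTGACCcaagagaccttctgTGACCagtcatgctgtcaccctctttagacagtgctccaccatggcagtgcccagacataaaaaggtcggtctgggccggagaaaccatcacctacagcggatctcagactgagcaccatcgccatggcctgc
Avp: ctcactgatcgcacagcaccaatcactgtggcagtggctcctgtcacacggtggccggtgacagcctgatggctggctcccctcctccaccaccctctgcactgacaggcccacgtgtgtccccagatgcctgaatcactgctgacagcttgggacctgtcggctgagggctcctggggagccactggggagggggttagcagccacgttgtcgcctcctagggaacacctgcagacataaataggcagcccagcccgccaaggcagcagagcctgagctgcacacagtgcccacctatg
Prl: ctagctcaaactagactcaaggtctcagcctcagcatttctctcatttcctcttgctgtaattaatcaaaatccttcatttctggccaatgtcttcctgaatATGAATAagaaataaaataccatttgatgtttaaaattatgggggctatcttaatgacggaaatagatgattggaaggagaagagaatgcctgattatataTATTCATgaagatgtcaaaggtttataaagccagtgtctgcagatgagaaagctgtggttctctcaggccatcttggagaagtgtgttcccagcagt
The Oxt window held 5 matches to TGACC, 4 forward and 1 reverse, none overlapping, and the Avp window held 0. At least 1 match stood in 40.5% of the 32851 RefSeq promoter windows of this length. The Prl window held 2 matches to TATNCAT, 1 on each strand, a motif found in 8.84% of windows. These are matches of letters and say nothing of whether a factor was bound.

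Several brain libraries stood apart from the rest before any hormone gene was compared. Among 15 liver markers (the list without Ttr, which choroid plexus also makes), the summed level was 804 to 1135 CPM in vehicle brains, most of it from Trf, which brain itself expresses. It was 982 to 4808 CPM in Mn brains, and 2985 to 4808 CPM in the 5 Mn males. The summed level of 16 small intestine markers was 13.6 to 17.4 CPM in vehicle brains, 21.7 CPM in Mn female 2575, 50.6 to 178.9 CPM in the 5 Mn males, and 1910 and 1085 CPM in Mn females 2576 and 2600. Across the 12 liver markers tested in brain, 9 were higher with Mn and 0 lower. In edgeR's quasi-likelihood test with Benjamini-Hochberg adjustment, Cps1, a urea cycle enzyme of liver, was higher by 5.47 ± 0.57 (SE) on the log2 scale (adjusted p = 9.152e-05). The intestine marker Pigr, a transporter of immunoglobulins, was higher by 6.05 ± 0.77 (adjusted p = 0.0002017). Mn female 2575 came closest to the vehicle brains, and the other 7 Mn libraries are the ones in doubt. With both marker sums as covariates 0 genes passed the Mn contrast in brain. The intestine marker sum was higher in every Mn brain than in any vehicle brain, so that fit cannot tell treatment from the marker reads. Leaving out those 7 leaves 1 Mn library, 2575, so the values given without them describe that library and not the group.

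In the Mn-against-vehicle fit over the 15 brain libraries, with sex as a covariate, 74 of 12872 genes passed an adjusted p of 0.05, which is 0.575% of the genes tested. Of these 72 were higher (0.559%) and 2 lower (0.0155%). None of the 10 hormone genes was among them (0 of 10). The log2 change was negative for 10 of 10 hormone genes, with a median of −0.86, and for 52.1% of all genes tested, with a median of −0.01. No hormone gene had groups that failed to overlap, a property of 0.117% of the genes tested, and each had at least 1 Mn library below every vehicle library, as did 68.4% of all genes. These shares are set side by side only, since the same contrast chose the genes.

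**Figure D1:**
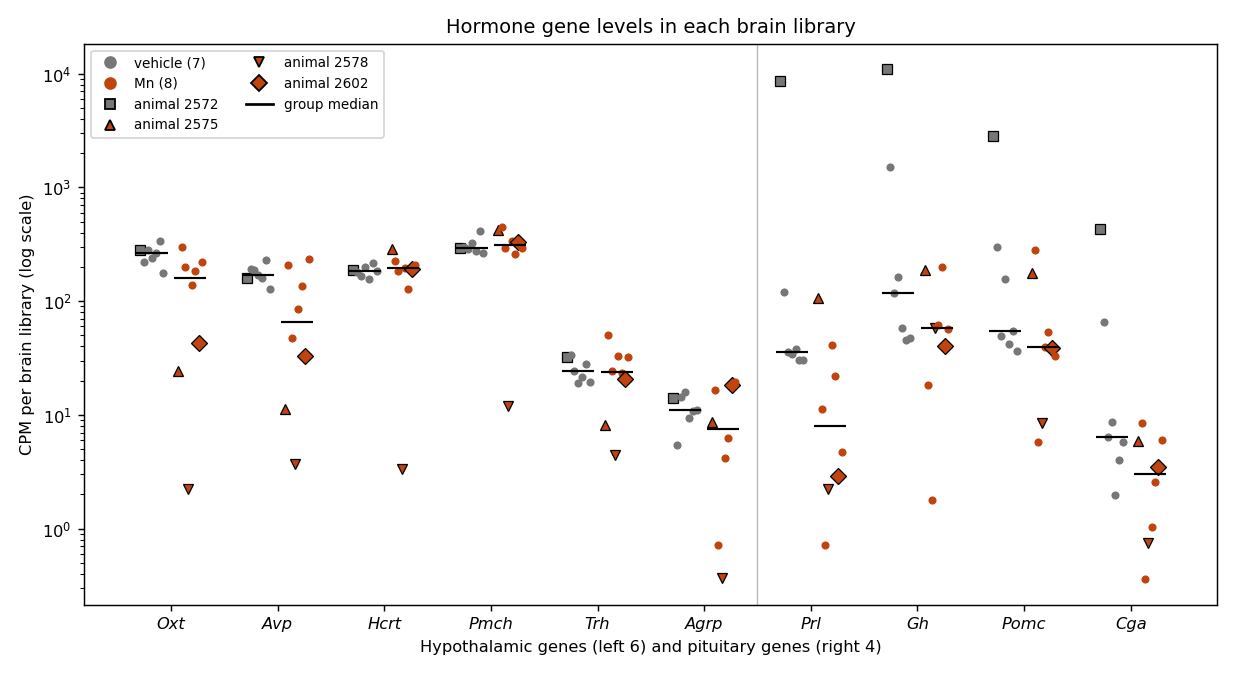
Level of each hormone gene in each brain library (CPM, logarithmic axis), with vehicle in grey, Mn in orange, group medians as black lines, and animals 2572, 2575, 2578 and 2602 drawn with their own symbols. Vehicle 2572 lies far above the rest for the 4 pituitary genes, and Mn 2578 lies lowest for Oxt, Avp, Hcrt, Pmch, Trh and Agrp.

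Oxytocin transcripts were even among vehicle brains and ranged widely among Mn brains. Oxt (ENSMUSG00000027301.8) lay between 176 and 335 CPM in the 7 vehicle libraries, with a median of 263 CPM. In the 8 Mn libraries it ran from 2.23 CPM (6 reads) in male 2578 through 24.4 CPM in female 2575 and 42.6 CPM in male 2602 to 297 CPM in female 2576, with a median of 161 CPM. The other 4 Mn libraries held 137.6, 184, 199 and 220.1 CPM. Thus 4 of 8 Mn libraries (2575, 2578, 2600 and 2602) lay below every vehicle library and the other 4 lay within the vehicle range. Having at least 3 Mn libraries below every vehicle library was true of 27.8% of all genes tested. For Oxt the log2 change was −0.86 ± 0.52 (SE), and −0.67 without 2578. With 2575 as the only Mn library, the 7 in doubt left out, it was −3.58, and with both marker sums as covariates −4.05. These values are not independent, since the covariate fit also holds 2575, the Mn brain closest to vehicle in the markers. The Mn mean was 138.4 ± 105.8 CPM (SD, n = 8), against 256.6 ± 51.0 CPM (SD, n = 7) in vehicle. Without 2575, 2578 and 2602 it was 207.7 ± 58.5 CPM (SD, n = 5). Those libraries were the lowest of the Mn group for Oxt, so leaving them out could only raise its mean, and vehicle was not trimmed.

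Vasopressin, the antidiuretic hormone, followed the same libraries. Avp (ENSMUSG00000037727.7) was 127 to 232 CPM in vehicle, median 171 CPM. In Mn it was 3.71 CPM in 2578, 11.4 CPM in 2575, 33.0 CPM in 2602, 47.4 CPM in male 2577 and 85.1 CPM in female 2600, and between 136 and 235 CPM in the other 3. In all, 5 of 8 Mn libraries lay below every vehicle library and 1 (2603) above. The share of all genes with 5 below is not given here, and 27.8% had at least 3. For Avp the log2 change was −0.87 ± 0.53, with −0.68 without 2578 and −1.27 without 2603. It was −4.01 with 2575 as the only Mn library and −3.95 with the marker sums as covariates, values that are not independent, as for Oxt. Male 2577 separated the pair: its Oxt of 199 CPM lay inside the vehicle range while its Avp did not, and its Oxt-to-Avp ratio of CPM was 4.2. That ratio was 1.16 to 1.75 in vehicle brains and 0.600 to 2.14 in the other Mn brains.

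Orexin and melanin-concentrating hormone, the lateral hypothalamic pair, shared only 1 very low library, 2578, with Oxt and Avp. Hcrt (ENSMUSG00000045471.5), which sustains wakefulness, was 158 to 217 CPM in vehicle, median 185 CPM. In Mn it was 3.34 CPM (9 reads) in 2578 and 127 to 285 CPM in the other 7, with a group median of 195 CPM. Pmch (ENSMUSG00000035383.8), which promotes feeding, was 267 to 412 CPM in vehicle and 11.9 CPM in Mn 2578, against 262 to 451 CPM in the other Mn libraries. Animals 2575 and 2602, low for Oxt and Avp, held 285 and 192 CPM of Hcrt and 422 and 330.3 CPM of Pmch, so neither was low for this pair. For both genes 2 Mn libraries lay below every vehicle library (2578 and 2601) and 2 above (2575 and 2576). Having at least 2 Mn libraries below every vehicle library was true of 44.7% of all genes tested. The log2 change was −0.07 ± 0.40 for Hcrt and −0.06 ± 0.37 for Pmch. Leaving out 2578 turned both positive, at 0.13 and 0.14, and with 2575 as the only Mn library they were 0.60 and 0.36. An exon of Pmch overlaps one of Parpbp on the other strand, and because no source used here states how strand was handled in counting, its reads are uncertain.

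Trh, the releasing hormone of the thyroid axis, was low in 2 Mn libraries and high in 1. Trh (ENSMUSG00000005892.5) was 19.2 to 33.5 CPM in vehicle. In Mn it was 4.45 CPM in 2578, 8.13 CPM in 2575, 50.7 CPM in 2576 and 20.8 to 32.9 CPM in the other 5. Its log2 change was −0.03 ± 0.32, 0.13 without 2578 and −1.74 with 2575 as the only Mn library. Agrp (ENSMUSG00000005705.11), an appetite-raising antagonist of melanocortin receptors, was 5.40 to 15.8 CPM in vehicle. In Mn it was 0.371 CPM (1 read) in 2578, 0.718 CPM (2 reads) in 2577 and 4.18 CPM in 2600, but 16.6, 18.2 and 19.6 CPM in 2576, 2602 and 2603. Thus 3 of 8 Mn libraries lay below every vehicle library and 3 above, and the log2 change was −0.32 ± 0.49 (0.14 with the marker sums as covariates). At least 3 below was true of 27.8% of all genes tested, and the share above is not given here. Counts at or under 3 reads, which is 0.784 to 1.63 CPM across the brain libraries, set the limit of what these depths show. Agrp shares exon sequence with Ctcf on the other strand and Gm5914 on the same strand, so its low counts are uncertain.

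The pituitary genes had their highest values among vehicle brains, and they also varied widely among Mn brains. Vehicle female 2572 held 8607 CPM of Prl (20307 reads), 10885 CPM of Gh, 2839 CPM of Pomc and 427 CPM of Cga, together 2.25% of all its assigned reads. Vehicle male 2573 came next in vehicle, at 121 CPM of Prl, 1516 CPM of Gh, 300.0 CPM of Pomc and 65.8 CPM of Cga, together 2003.5 CPM. In the other 5 vehicle libraries Prl was 30.3 to 38.4 CPM, Gh 45.3 to 164 CPM, Pomc 36.2 to 155.5 CPM and Cga 1.99 to 8.64 CPM. These 2 vehicle animals set the vehicle means, and the medians of all 7 were 35.6 CPM for Prl, 119 CPM for Gh, 54.2 CPM for Pomc and 6.35 CPM for Cga.

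Prolactin (Prl, ENSMUSG00000021342.15), the lactation hormone, was below the vehicle range in most Mn brains. It was 0.718 CPM (2 reads) in 2577, 2.23 CPM in 2578, 2.88 CPM in 2602, 4.72 CPM in 2603, 11.4 CPM in 2576, 22.1 CPM in 2601, 41.5 CPM in 2600 and 106 CPM in 2575. In all, 6 of 8 Mn libraries were below every vehicle library. At least 3 were so for 27.8% of all genes tested, and the share for 6 is not given here. For Prl the log2 change was −4.56 ± 1.18, −1.65 without vehicle 2572 and −1.03 without vehicle 2572 and 2573. With 2575 as the only Mn library it was −4.77. Within animals numbered 2572 to 2578 it was −6.99 and within 2600 to 2630 it was −0.70. The labels do not say whether the number ranges mark cohorts. Vehicle animals were 2572 to 2574 and 2627 to 2630, and Mn animals 2575 to 2578 and 2600 to 2603. Within a range, treatment therefore cannot be told apart from the run of numbers.

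Growth hormone (Gh, ENSMUSG00000020713.7), made by somatotrophs, overlapped between groups. In Mn it ran from 1.80 CPM in 2577 through a median of 58.0 CPM to 199 CPM in 2601. For Gh 3 libraries (2576, 2577 and 2602) lay below every vehicle library, as at least 3 did for 27.8% of all genes tested. The log2 change was −3.77 ± 1.19, −1.75 without vehicle 2572 and −0.15 without 2572 and 2573. It was −5.70 in the lower number range and −0.02 in the higher. Pomc (ENSMUSG00000020660.7), the precursor of corticotropin and melanocortins, was 5.75 CPM in 2577 and 8.54 CPM in 2578, 33.0 to 53.1 CPM in 4 others, and 177 and 283 CPM in 2575 and 2576. Its log2 change was −2.41 ± 0.79, −1.09 without 2572 and −0.38 without 2572 and 2573. Cga (ENSMUSG00000028298.11) was 0.359 CPM (1 read) to 8.53 CPM in Mn, with a log2 change of −4.08 ± 1.07, −2.10 without 2572 and −0.69 without 2572 and 2573. An exon of Cga overlaps one of Platr9 on the other strand.

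**Figure D2:**
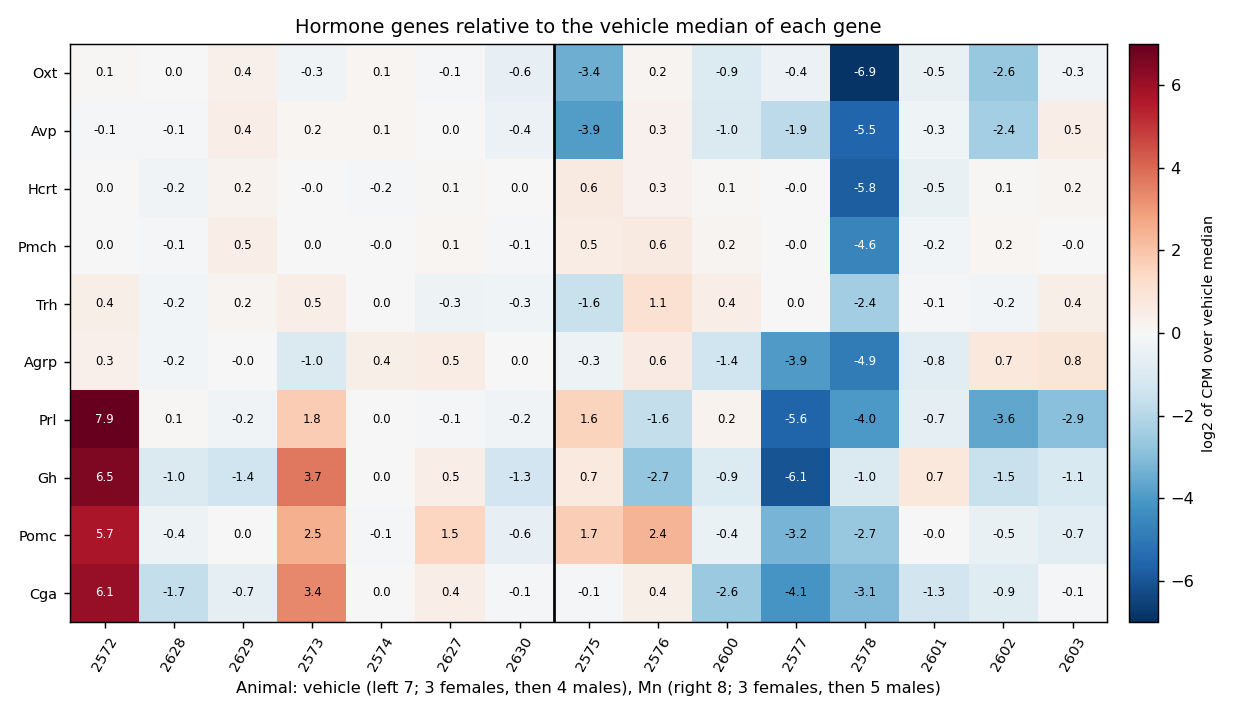
Level of each hormone gene in each brain library as the log2 ratio of its CPM to the vehicle median of that gene (red higher, blue lower). The vehicle columns are near 0 for the 6 hypothalamic genes and strongly raised for the 4 pituitary genes in 2572 and, less so, in 2573, while the low values in Mn fall in different animals for different genes.

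The spread within groups placed the genes among the most variable of all 12872 tested. By SD of log2(CPM + 1) over vehicle brains, Gh ranked 2, Prl 3, Cga 5 and Pomc 6, with SDs of 2.99, 2.97, 2.54 and 2.26 against a median of 0.182 over all genes. Over Mn brains Oxt ranked 14 (SD 2.22), Prl 23, Avp 26, Hcrt 28, Gh 30, Pomc 36, Pmch 45, Agrp 54 and Cga 198, against a median SD of 0.237 over all genes. For Hcrt and Pmch the Mn spread came with the 1 library 2578, at 3.34 CPM of Hcrt against 127 to 285 CPM in the other 7. In vehicle Oxt ranked 2567 (SD 0.298) and Hcrt 7934 (SD 0.154). Trh ranked 190 among Mn brains and 2102 among vehicle brains. The ranks describe the choice of genes and are no test.

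Some pairs of genes made in the same place varied together over the 15 libraries and others did so less, given as a description because the same libraries chose the genes and share their dissection and depth. On log2(CPM + 1), Pearson's r was 0.993 for Hcrt and Pmch (Spearman's rho 0.875). It was 0.749 without 2575 and 2578, the 2 libraries farthest from the median of Hcrt, and 0.810 within the 7 vehicle libraries. For Oxt and Avp r was 0.951 (rho 0.832), 0.823 without 2575 and 2578 and 0.775 within vehicle. For Pomc and Cga r was 0.904 (rho 0.764), and 0.764 without 2572 and 2577. For Prl and Gh it was 0.877 (rho 0.739), and 0.616 without 2572 and 2577. For Gh and Cga r was 0.861 but rho 0.461, and r was 0.454 without 2572 and 2573. Agrp and Pomc, both of the arcuate nucleus, had r of 0.544, rho of 0.193 and r of 0.046 within vehicle. Oxt and Hcrt, made in different nuclei, had r of 0.762 but rho of 0.179, and r was 0.064 without 2575 and 2578, so that relation rested on those libraries. Within vehicle libraries Oxt and Hcrt gave 0.208. In all, 45 pairs were computed.

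**Figure D3:**
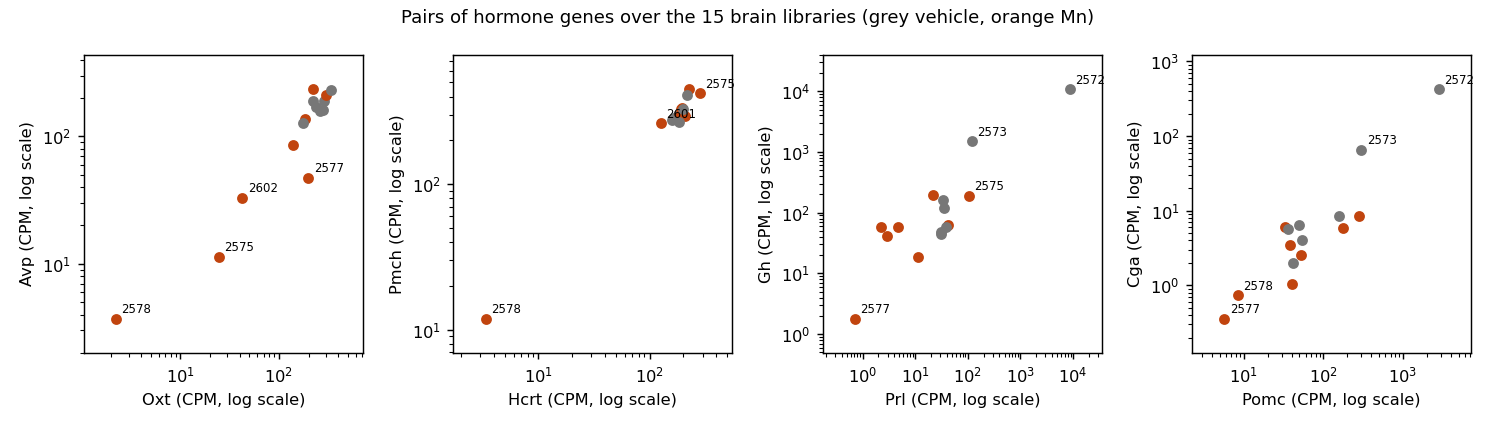
Levels of 4 pairs of hormone genes in the 15 brain libraries (CPM, both axes logarithmic, grey vehicle and orange Mn, each point 1 animal). Oxt and Avp fall along one line down to animal 2578, with 2577 below it, Hcrt and Pmch lie close together with 2578 far below, and the pituitary pairs stretch from 2577 up to 2572 and 2573.

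The genes whose pattern over the 15 brain libraries was most like each hormone gene were taken from the 3 with the highest Spearman correlation, again as a description. For Oxt they were Celf6 (rho 0.918), Sst (0.871), which encodes somatostatin, and Amt (0.850). For Avp they were Csrnp2 (0.871), Baiap3 (0.846) and Oxt (0.832). Hcrt was most like Pmch (0.875), then Eif2b3 (0.843) and Ube2f (0.825). Pmch was most like Hcrt, followed by Ociad2 (0.846). Agrp was most like Npy (0.843), the peptide that the same arcuate neurons release, at a mean of 28.9 CPM, then Scn7a (0.779) and Ehbp1l1 (0.764). Trh was most like Ecel1 (0.807) and, among others, Mre11a (0.804). Prl was most like Prkg2 (0.893), Fam214b (0.832) and Gm1976 (0.829), and Gh like Igf2r (0.814), Gdap2 (0.811) and Acadsb (0.807). Pomc was most like Gjc1 (0.864), Fam189b (0.850) and Pax6 (0.829), and Cga like Tpd52 (0.821), Fam189b and Alg8 (both 0.818). The leading genes of these 4 included no other pituitary hormone.

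Markers of regions were then read in the libraries with extreme hormone levels. In vehicle 2572, the other 3 pituitary hormone genes (Tshb, Fshb and Lhb, named after their values were seen) summed to 81.4 CPM, with Tshb at 54.2 CPM and Fshb at 26.7 CPM. The sum was 9.71 CPM in vehicle 2573, mostly Fshb at 8.63 CPM, 0.424 to 1.57 CPM in the other vehicle libraries and 0 to 1.11 CPM in Mn. Pou1f1, the factor that defines Prl, Gh and Tshb cells, was 14.4 CPM in 2572 and at most 0.742 CPM in any other library. The factors Pitx1 (8.48 CPM) and Tbx19 (5.51 CPM) and the receptor Ghrhr (6.78 CPM) were also highest in 2572. The summed level of all 19 pituitary identity genes was 416 CPM in 2572 and 176 to 239 CPM in the other vehicle libraries, against 165 to 209 CPM in Mn. In Mn 2577, where Prl and Gh were lowest, Pou1f1, Tshb and Fshb were all at 0, as they also were in 2576 and 2600.

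Mn male 2578, lowest for all 6 hypothalamic hormone genes, differed from the other brains in other regions too. Those 6 genes summed to 26.0 CPM there, against 785 to 1235 CPM in vehicle and 637 to 1252 CPM in the other Mn brains. Choroid plexus markers summed to 4083 CPM (2925 CPM of Ttr, a thyroid hormone carrier) against 350 to 980 CPM in vehicle, and markers of hindbrain and spinal cord to 153 CPM against 0.809 to 34.6 CPM. Thalamus markers summed to 820 CPM against 1943 to 2425 CPM, and cerebellum markers to 395 CPM against 660 to 792 CPM. Of 26 hypothalamic identity genes, 5 were at 0, and they were Nkx2-1, Nkx2-4, Fezf1, Nr5a1 and Hmx3, factors of hypothalamic nuclei (named after their values were seen). Nr5a1 was also at 0 in 2575. Vehicle brains 2627 and 2628 each had 1 gene of the list at 0, and vehicle 2630 had 2. The summed level of that list, most of it from genes used more widely in brain, was 1630 CPM in 2578 against 1662 to 1967 CPM in vehicle. In 3 other Mn brains, 2575, 2601 and 2602, it was lower still at 1550, 1607 and 1509 CPM. The 21 other hypothalamic peptide genes counted summed to 511 CPM in 2578, within the vehicle range of 446 to 609 CPM. Single peptide genes went both ways. Galanin (Gal) was 2.97 CPM against 22.5 to 78.0 CPM, and Ghrh was at 0 against 3.49 to 9.44 CPM, while Cartpt was 219 CPM against 67.6 to 143 CPM. The liver marker sum of 2578, at 4245 CPM, was second to that of 2577. What part of the loss of hormone reads goes with any of these was not tested.

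**Figure D4:**
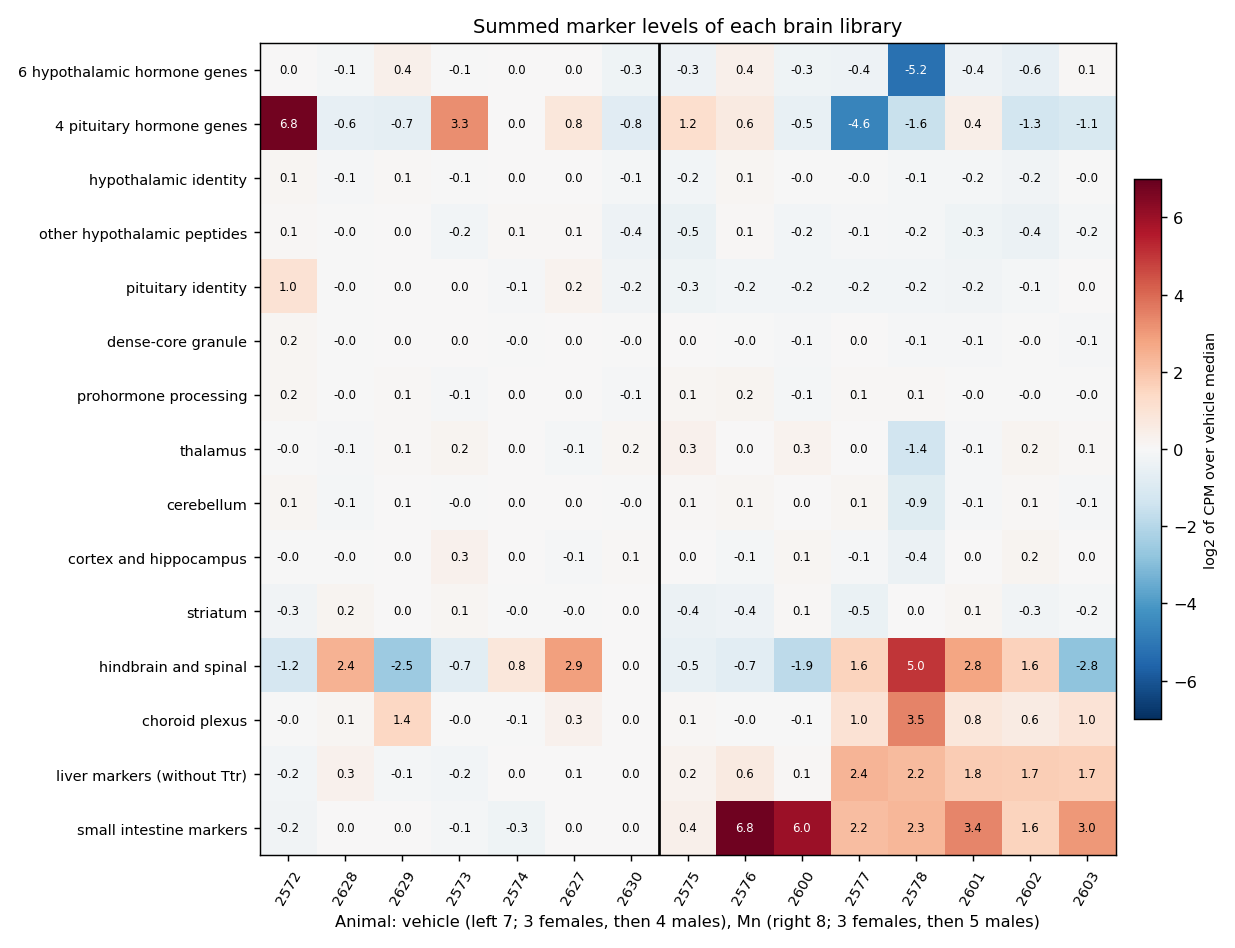
Summed CPM of marker lists in each brain library as the log2 ratio to the vehicle median (red higher, blue lower). The column of Mn 2578 is low for the hypothalamic hormone genes, thalamus and cerebellum and high for choroid plexus and hindbrain, vehicle 2572 is high for the pituitary rows, and liver or small intestine markers are raised in 7 of 8 Mn columns.

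Other genes of peptide production and release in brain were tested in the Mn contrast as lists, and 0 genes of the 8 lists described here passed the adjusted p of 0.05 by edgeR or by DESeq2 over the 15 libraries. Within animals 2600 to 2630, where 1607 of all genes passed, 6 dense-core granule, 4 hormone receptor, 3 hypothalamic identity, 3 arcuate, 1 processing and 1 other peptide gene did. In males alone, where 329 of all genes passed, 2 choroid plexus genes and 1 arcuate gene did. The numbers tested and the directions in these fits are not given here, so the list counts cannot be set against the share over all genes. Of 22 other hypothalamic peptide genes 13 passed the filter on low counts, 10 of them with a negative change, and the median log2 change was −0.13 against −0.01 over all genes tested. Sst averaged 266 ± 22.6 CPM over vehicle brains and 241 ± 31.9 CPM over Mn brains (SD, n = 7 and 8, adjusted p = 0.7585). Cartpt, a peptide precursor of the arcuate and other nuclei, was 93.4 ± 28.2 and 80.5 ± 57.0 CPM (adjusted p = 0.9141). In this list 0 genes had an unadjusted p under 0.05.

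For 11 prohormone processing genes the median was −0.02, and 0 had an unadjusted p under 0.05. Cpe, the carboxypeptidase that trims cleaved peptides, was 1132 ± 40.0 CPM in vehicle and 1206 ± 147 CPM in Mn (adjusted p = 0.8166). For 16 dense-core granule genes, which build the vesicles that store peptides, the median was −0.07, 13 changes were negative and 1 gene had an unadjusted p under 0.05. Ptprn, a granule membrane protein, was 459 ± 19.8 and 413 ± 45.6 CPM (adjusted p = 0.5957).

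Of 19 pituitary identity genes 5 were tested, with a median of −0.16 and 1 unadjusted p under 0.05. Dlk1, an imprinted gene that pituitary and hypothalamus both express, was 164 ± 41.9 CPM in vehicle and 129.97 ± 12.6 CPM in Mn (adjusted p = 0.3826). Of 26 hypothalamic identity genes 18 were tested, with a median of −0.04 and 2 unadjusted p under 0.05. Resp18, a protein of endocrine secretory granules, was 579 ± 41.9 and 512 ± 51.4 CPM (adjusted p = 0.461). Among 16 hormone receptors the median was −0.10 and 0 had an unadjusted p under 0.05, with the thyroid hormone receptor Thra at 338 ± 15.6 and 348 ± 21.5 CPM. Among 10 arcuate feeding regulators the median was −0.01 and 1 had an unadjusted p under 0.05. The 8 choroid plexus genes tested had a median of 0.55, which was 0.15 without 2578 and −0.83 with the marker sums as covariates. Ttr was 124 ± 192 CPM in vehicle and 528 ± 977 CPM in Mn (adjusted p = 0.876). Its medians were 38.9 and 236 CPM, and the highest library of each group, at 550 and 2925 CPM, weighed on each mean.

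Sex was tested in the same fit. The choice of genes did not use sex, but it used their counts in these same brain libraries. For the hormone genes, the p-values for sex, and for sex by treatment below, are therefore not independent of the choice. In brain, 14 of 12872 genes differed between females and males (0.109% of those tested), and 0 of 10 hormone genes did, although 3 (Prl, Pomc and Cga) had an unadjusted p under 0.05. DESeq2 also passed 0 of 10 and gave no adjusted p for Prl, Gh and Cga. Prl had the largest difference, with females above males by 4.70 ± 1.13 on the log2 scale (adjusted p = 0.1896). The mean was 1472 CPM over females and 28.2 CPM over males, of which vehicle female 2572 was 8607 CPM. Without 2572 the Prl difference was 1.35 (adjusted p = 0.8821). The adjusted p was 0.04553 without vehicle female 2628 and 0.00132 with no filter on low counts. In vehicle, females 2628 and 2629 held 38.4 and 30.3 CPM of Prl, while males 2574, 2627 and 2630 held 35.6, 34.2 and 30.4 CPM, between the 2 females, and male 2573 held 121 CPM, above both. In Mn, the 3 females held 106, 41.5 and 11.4 CPM and the 5 males at most 22.1 CPM, and the groups overlapped.

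Pomc was higher in females by 2.71 ± 0.77 (adjusted p = 0.3717), and by 1.22 without 2572, while with no filter on low counts the adjusted p was 0.01017. For Cga the difference was 2.28 ± 0.97 (adjusted p = 0.7447) and for Gh 1.77 ± 1.17 (adjusted p = 0.906). Both turned around without 2572, to −1.04 and −0.86. For the 6 hypothalamic genes the sex difference lay between −0.01 (Agrp) and 0.47 (Pmch), with adjusted p from 0.9345 to 0.9996. The test of whether the Mn difference itself depended on sex passed for 8 of 12872 genes (0.0622%) and for 0 of 10 hormone genes, with the smallest adjusted p at 0.9997. With 3 females a group, these tests leave wide intervals, and the SE of the interaction for Oxt was 1.09.

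Outside the brain the hormone genes were close to the limit of detection. None passed the filter on low counts in liver or small intestine, so none was tested there. In small intestine 54 of 11770 genes passed between Mn and vehicle (0.459%). Across 15 liver and 14 small intestine libraries each gene had at most 21 reads in any library. Pmch reached 20 reads in liver of vehicle male 2630 and 19 in small intestine of Mn male 2602. The summed CPM of the 10 genes was 12.9 to 25.9 CPM in livers of males 2601, 2602, 2603, 2627 and 2630 and 13.4 and 10.6 CPM in Mn females 2575 and 2576, against 0 to 5.97 CPM in the other 8. The sum of 16 dense-core granule genes, neuronal and endocrine in use, was 117 to 214 CPM in those 5 male livers and 47.2 to 91.7 CPM in the other 10, and the source of these reads was not tested.

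Growth hormone acts on liver through its receptor and the signal transducers Stat5a and Stat5b, and its pulse pattern sets many genes that differ between male and female liver. In liver, 123 of 10536 genes passed between Mn and vehicle (1.17% of those tested), with 51 higher (0.484%) and 72 lower (0.683%). Of 17 growth hormone pathway and target genes 16 were tested, 1 rose and 1 fell, and the median log2 change was 0.00 against −0.02 over all genes. Igfbp3, a carrier of insulin-like growth factors, was 26.9 to 45.4 CPM in vehicle (median 38.8) and 41.2 to 90.3 CPM in Mn (median 55.8), higher in 7 of 8 Mn livers than in any vehicle liver. It rose by 0.64 ± 0.15 (adjusted p = 0.04236), a call lost in 11 of 15 fits that left out 1 library. Stat5a was 18.0 to 35.5 CPM in vehicle (median 21.3) and 10.5 to 19.0 CPM in Mn (median 15.8), below every vehicle library in 6 of 8. At least 1, 2 or 3 Mn livers lay below every vehicle liver for 49.6%, 26.9% and 15.2% of all genes tested. The matching shares above every vehicle liver are not given here. Stat5a fell by 0.63 ± 0.12 on the log2 scale (adjusted p = 0.02075), a call kept in all 15 such fits. The receptor Ghr was 579 ± 144 CPM in vehicle and 542 ± 113 CPM in Mn (adjusted p = 0.754), and Igf1, named after its values were seen, was 949 ± 97.3 and 1030.0 ± 129 CPM (adjusted p = 0.5411).

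Of 26 sex-biased growth hormone dependent genes 21 were tested, 1 rose and 1 fell, with a median of −0.21. DESeq2 passed 6 genes of this list and 3 of the growth hormone pathway list, where it passed 350 of all liver genes against 123 by edgeR. The change was negative for 13 of the 21, against 53.3% of all genes tested. C6, a complement component higher in males here, was 508 to 977 CPM in vehicle males and 210.3 to 446 CPM in Mn males, and 44.7 to 50.6 CPM in vehicle females and 23.0 to 31.8 CPM in Mn females. It fell by 1.03 ± 0.18 on the log2 scale (adjusted p = 0.01417), with no overlap in either sex. Over both sexes together C6 did overlap (44.7 to 977 CPM in vehicle, 23.0 to 446 CPM in Mn), while 0.256% of all genes tested did not. The share of genes without overlap within each sex was not computed, so how unusual this is was not tested. Without the 5 male livers that held the most dense-core granule reads, C6 and Pdk4 kept an adjusted p of 0.002325 and 0.003569, while Stat5a (0.05973), Igfbp3 (0.08753) and Sult1a1 (0.1071) lost the call. Their log2 changes were then −0.69, 0.53 and 0.44, against −0.63, 0.64 and 0.65 over all livers. Leaving sex out of the model left the log2 changes of C6 at −1.02, Stat5a at −0.68, Igfbp3 at 0.63 and Sult1a1 at 0.54, and ended all 4 calls (adjusted p = 0.5402, 0.09562, 0.08895 and 0.2696).

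Of 12 thyroid hormone targets tested in liver 0 passed by edgeR or DESeq2 and 1 had an unadjusted p under 0.05, with a median of −0.06. Thrsp, a lipogenic gene that thyroid hormone induces, was 391 ± 126 CPM in vehicle and 498 ± 357 CPM in Mn (adjusted p = 0.6671). Of 18 glucocorticoid targets 1 rose and 1 fell, with a median of −0.02. Pdk4, a kinase that restrains glucose oxidation, was 7.55 to 14.6 CPM in vehicle and 0.521 to 8.07 CPM in Mn, below every vehicle library in 7 of 8. Pdk4 had only 1 to 8 reads in those 7 livers and 18 to 38 in vehicle livers, so depth limits its Mn levels. It fell by 1.95 ± 0.34 on the log2 scale (adjusted p = 0.01408). Sult1a1, a sulfotransferase, was 233 to 599 CPM in vehicle and 402 to 853 CPM in Mn and rose by 0.65 ± 0.13 (adjusted p = 0.02642), a call lost in 3 of 15 fits that left out 1 library. Of 12 hormone receptors tested in liver 0 passed by edgeR or DESeq2 and 1 had an unadjusted p under 0.05, with a median of −0.12. Circulating hormone was not measured in these files, and the link from the brain levels to these liver genes was not tested.

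**Figure D5:**
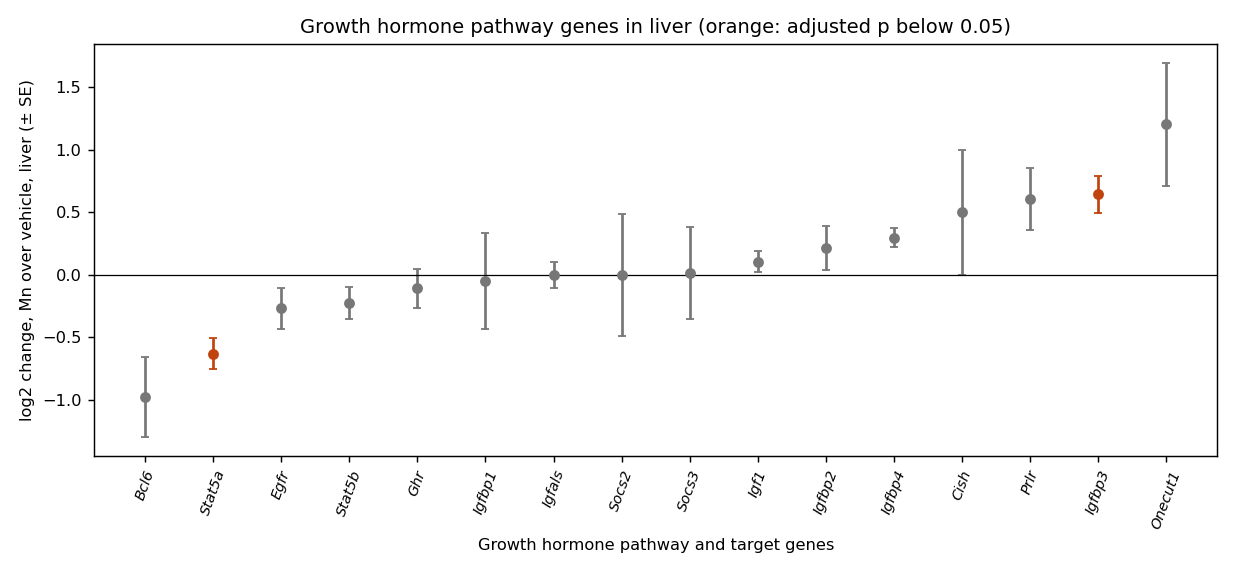
Log2 change in liver between Mn and vehicle for the 16 growth hormone pathway and target genes tested, with bars of 1 SE over 15 liver libraries. Orange points passed an adjusted p of 0.05, namely Stat5a below 0 and Igfbp3 above it, and the other points did not.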

How the data were processed

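Per the labels' protocols, total RNA of tissue homogenates was made into 3′ TagSeq libraries and sequenced as single-end reads. The deposited files hold the authors' raw read count per gene. The submitters' processing notes list the build GRCm39, STAR 2.7.10b, DESeq2 1.12.3, HTSeq 0.2.0, FastQC 0.12.0 and R 4.2.2, while strand and duplicate handling are not given in the sources used here. Of 55416 identifiers, 52083 matched a symbol with the version stripped. The 92 spike-in entries (4 reads in all) and 5 summary entries were left out, and reads outside genes stayed out of library sizes (no feature 1.84% to 4.14%, ambiguous 2.06% to 2.53%, multimapped 23.8% to 34.8% of reads per library). Groups and sex came from the labels.

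Each tissue was fitted with edgeR 4.0.16 in R 4.3.3 (filterByExpr with a count minimum of 10, TMM, quasi-likelihood test, Benjamini-Hochberg adjustment over all genes tested, threshold 0.05), with sex as covariate. The edgeR fit of the Mn contrast was tested on simulated data for brain and liver, and the alternatives were not. DESeq2 1.42.0 was an alternative, besides other scaling, no filter, number ranges and leaving out libraries. Within a tissue each library comes from a different animal, by the animal numbers in the labels. The ± values on log2 changes are SEs of the edgeR fit, and those on CPM are SDs over libraries. Both include variation between animals. The member genes and all lists were chosen with earlier results of these data known. Named from each list were genes past the threshold (at most 4) or else the 2 most abundant, and other names were chosen after their values were seen. A few genes that this rule selects are not reported here.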

Additional observations from a re-analysis of the deposited data

Results flagged for a closer look

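Among 32 groups of libraries examined (10 hormone genes and 6 marker lists, in vehicle and Mn brains), 13 had a highest or lowest library far from the nearest other one, where chance alone flags about 1 in 20 groups. The hormone genes were chosen for such variation and the groups share libraries, so the 13 cannot be set against that rate. Vehicle 2572 held the highest Prl (8607 CPM, next 121.2 CPM), Gh (10880 CPM, next 1516 CPM), Pomc (2839 CPM, next 300.0 CPM) and Cga (427.2 CPM, next 65.8 CPM), and the highest summed pituitary identity genes (416.2 CPM). Mn 2575 held the highest Prl among Mn libraries (106.2 CPM, next 41.5 CPM).

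Mn 2578 held the lowest Pmch of its group (11.88 CPM, next 261.9 CPM), the highest choroid plexus sum (4083 CPM) and hindbrain and spinal sum (152.9 CPM), and the lowest thalamus sum (819.8 CPM) and cerebellum sum (394.9 CPM). Vehicle 2629 held the highest Pmch of its group (412.1 CPM, next 327.2 CPM) and the highest choroid plexus sum (979.9 CPM).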

How the results depend on the processing

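No paired analysis was possible because the groups compared share no animal. The count of genes past the threshold moved with most settings, and the cause was not tested. The intestine marker covariate, and the runs of animal numbers within each number range, split by treatment as described above. For Mn in brain (74) it was 542 with no filter on low counts, 119 by DESeq2, 0 in females alone, 329 in males alone, 198 in animals 2572 to 2578, 1607 in animals 2600 to 2630, 195 without vehicle 2572 and 2573, 2 without the 7 Mn brains in doubt, which leaves 1 Mn library assumed to vary like the others, and 0 with marker levels as covariates. For sex in brain (14) it was 389 with no filter, 9 by DESeq2, 6 without a treatment term, 6 in vehicle alone, 211 in Mn alone, 6 without the 7 Mn brains in doubt, 155 without vehicle 2572 and 2573 and 23 without vehicle 2572 and Mn 2578. For sex by treatment (8) it was 51 with no filter and 31 by DESeq2. For liver (123) it was 519 with no filter, 350 by DESeq2, 19 with no sex term, 7 in females, 39 in males, 198 and 4 in the lower and higher animal numbers and 51 without the 5 male livers. For small intestine (54 of 11770 genes, 0.459%) it was 521, 141, 11, 4, 8 and 147 under the same settings (no filter, DESeq2, females, males, lower and higher numbers). Leaving out 1 library gave 30 to 124, 6 to 58, 0 to 15, 35 to 371 and 12 to 120 genes for these 5 comparisons in turn.

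Scaling by DESeq2's size factors moved no such count by over 1.5 times. The sex difference turned around for Gh (−0.86 without 2572, −0.20 without 2572 and 2573, −1.03 without 2572 and 2578) and Cga (−1.04, −0.024 and −1.23). With 1 library left out it ran from −0.86 to 2.61 for Gh and from −1.04 to 3.23 for Cga. For Agrp (−0.01) it was 0.048 by DESeq2, 0.021 without a treatment term, 0.0051 in Mn alone and −0.27 to 0.21 with 1 library left out. For Oxt leaving out 1 library gave −0.060 to 0.53 and for Avp −0.27 to 0.50. Within animals 2600 to 2630 the liver calls of C6, Stat5a, Igfbp3, Sult1a1 and Pdk4 did not hold (adjusted p 0.2547 to 0.2914), with log2 changes of −0.74, −0.56, 0.76, 0.76 and −1.77 from 8 livers, and within 2572 to 2578 Igfbp3 lost its call (0.0632). At 1 to 2 reads, Cga and Agrp in 2577 and 2578 and Prl in 2577 are limited by depth. The fits without vehicle 2572 and 2573, without vehicle 2572 and Mn 2578, and without the 5 male livers were chosen after seeing the data.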
